A study of Mus musculus with 8 samples.

Results

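The genes described are the non-Hox developmental homeobox and Pax genes of the mouse: the Pax, Lhx, Dlx, Nkx, Irx, Msx, Emx, En, Gsx, Barx, Barhl, Tlx, Alx, Isl and Pitx families and the sine oculis-related genes such as Six4. They were taken by symbol from the deposited count tables, and 73 of the 55418 genes in the tables belonged to them. RNA-seq was measured in 8 libraries of E14 embryonic stem cells (ESCs), a feeder-free mouse line whose strain is given as 12910la, with 2 libraries for each of 4 conditions. The cells were transfected with 1000 ng of a pSuper puro plasmid, treated from 24 h with 1 µg/ml puromycin for 3 days and collected. The plasmid expressed an shRNA against Hira, Ubn1 or Ubn2, which encode subunits of the HIRA complex, a chaperone that places histone H3.3 on chromatin. The control libraries are labelled wild type, and the methods of the study describe the control plasmid as an shRNA against luciferase and give a slightly lower puromycin dose than the labels, with a start at or before theirs. All samples therefore came from 1 cell line and from transient depletion after drug selection. The labels do not say whether the 2 libraries of a condition came from separate cultures, so the p-values measure the spread between libraries, which may be technical.

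Homeobox genes encode transcription factors that bind DNA through a homeodomain, and Pax genes encode factors with a paired domain. Most of them are silent or nearly silent in pluripotent cells and are switched on in restricted regions of the embryo, where they set the identity of brain regions, sensory organs, limbs, heart, gut and pituitary. Their promoters are classically rich in CG dinucleotides and carry both activating and Polycomb-linked repressive histone marks in ESCs.

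Promoter sequences from RefSeq (build GRCm38.p6) were matched by symbol to 51 of the 73 genes, with 60 start sites in all. The 250 bases before the start are given for 5 of the genes with a change that held under every processing alternative that tested it. They let the CG content discussed next be read directly. For Gsx2, Nkx6-2 and Tlx1 the change that held was between Hira and Ubn2 depletion. Their calls against control were lost under some alternatives. CG dinucleotides are in capitals, each sequence runs 5′ to 3′ on the strand of its gene, and bases that GENCODE M21 places in an exon were left out. No sequence is given for Msx2, whose whole window lies in such an exon. The Nkx2-9 stretch lies at chr12:56613285-56613534 on the minus strand and that of En1 at chr1:120602237-120602417 on the plus strand. The Gsx2 stretch lies at chr5:75075351-75075600 on the plus strand, that of Nkx6-2 at chr7:139582798-139583047 on the minus strand and that of Tlx1 at chr19:45150465-45150679 on the plus strand.
Nkx2-9: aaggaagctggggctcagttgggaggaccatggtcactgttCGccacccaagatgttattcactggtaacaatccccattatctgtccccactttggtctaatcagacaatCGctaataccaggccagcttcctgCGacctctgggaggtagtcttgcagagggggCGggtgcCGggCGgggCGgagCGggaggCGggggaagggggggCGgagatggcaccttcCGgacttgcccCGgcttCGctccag
En1: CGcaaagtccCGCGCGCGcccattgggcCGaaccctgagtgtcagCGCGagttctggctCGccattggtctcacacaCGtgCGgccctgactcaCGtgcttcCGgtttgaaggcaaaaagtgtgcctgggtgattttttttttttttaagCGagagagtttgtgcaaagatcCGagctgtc
Gsx2: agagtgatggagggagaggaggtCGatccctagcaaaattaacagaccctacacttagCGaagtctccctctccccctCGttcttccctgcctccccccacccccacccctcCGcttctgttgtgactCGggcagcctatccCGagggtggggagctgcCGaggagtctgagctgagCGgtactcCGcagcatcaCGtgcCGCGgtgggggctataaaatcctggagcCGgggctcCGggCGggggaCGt
Nkx6-2: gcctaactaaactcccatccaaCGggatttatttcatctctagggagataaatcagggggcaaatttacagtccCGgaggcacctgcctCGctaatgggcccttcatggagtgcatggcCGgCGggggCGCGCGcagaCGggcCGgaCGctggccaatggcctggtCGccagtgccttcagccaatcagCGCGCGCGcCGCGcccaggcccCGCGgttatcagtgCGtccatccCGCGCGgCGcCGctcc
Tlx1: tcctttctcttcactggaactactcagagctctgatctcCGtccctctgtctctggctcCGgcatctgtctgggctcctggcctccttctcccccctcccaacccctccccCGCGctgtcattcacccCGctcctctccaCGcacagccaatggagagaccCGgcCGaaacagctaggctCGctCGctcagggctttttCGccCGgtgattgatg

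The printed stretches hold 13 CG dinucleotides for Nkx2-9, 15 for En1, 16 for Gsx2, 26 for Nkx6-2 and 12 for Tlx1. Over the 60 windows of 250 bases the median was 16 CG, against 6 over the 32851 windows of all genes. At least 10 CG were found in 83.3% of the windows of homeobox and Pax genes and in 37.8% of all windows, and the median share of G and C was 62.0% against 52.4%. Windows of genes with enough reads to be tested had a median of 16.5 CG, and those of genes without had 15.5. The letters TAATTA, a palindrome that many homeodomains can bind, occurred in 1 of the 60 windows (1.67%, Msx2) and in 4.84% of all windows. The letters TATAAA on either strand occurred in 3 of them (5.0%) and in 12.4% of all windows, and the Gsx2 sequence above is 1 of these 3. These matches describe letters and not bound sites.

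**Figure D1:**
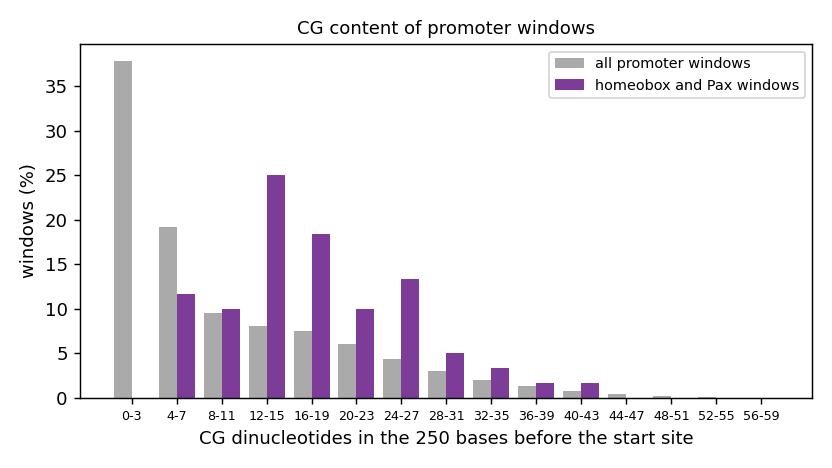
CG dinucleotides in the 250 bases before the start site (x axis, in classes of 4) against the percent of windows (y axis), for the 32851 windows of all genes (grey) and the 60 windows of homeobox and Pax genes (purple). The homeobox and Pax windows are centred on a median of 16 CG, and none has fewer than 4.

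Total counts on genes ranged from 19710040 to 32706053 per library, and 3 counts corresponded to 0.092 to 0.152 CPM, the read count scaled to library size. The shRNA targets were lower in their own depletions, with log2 fold changes of -3.22 for Hira, -1.03 for Ubn1 and -0.90 for Ubn2. Each of the 10 pluripotency markers was tested. They summed to 5720 to 6060 CPM in control, 5170 to 5430 after Hira, 5570 to 5740 after Ubn1 and 5640 to 5800 after Ubn2 depletion. Both Hira libraries lay below both controls. None of these markers was called after Hira or Ubn1 depletion, and after Ubn2 depletion Tbx3 was called higher and Dppa5a lower. Marker sums of other cell types moved with the depletions. Neural markers summed to 440 to 447 CPM in control, 580 to 583 after Hira, 454 to 481 after Ubn1 and 319 to 330 after Ubn2 depletion, with the neuronal gene Dcx at 0 in all libraries. Of the 8 neural markers tested, 4 were called higher and 1 lower after Hira and 1 higher and 2 lower after Ubn2 depletion. Most of the sum came from Stmn2, with means of 288 CPM in control, 320 after Hira and 181 after Ubn2 depletion, and from Tubb3, with 89.5, 164 and 81.2. Heart and muscle markers summed to 17.3 to 19.7 CPM in control, 16.0 to 18.3 after Hira, 12.7 to 18.7 after Ubn1 and 167 to 265 after Ubn2 depletion, when 5 of 7 were called higher and 1 lower. Trophectoderm markers summed to 66.1 to 69.2 CPM in control, 99.7 to 129 after Hira, 57.9 to 65.0 after Ubn1 and 51.2 to 55.6 after Ubn2 depletion. Of these, 3 of 5 tested were called higher and 1 lower after Hira, and 3 of 4 lower after Ubn2 depletion. The higher ones after Hira depletion were Cdx2, Krt8 and Krt18, and the lower one was Ascl2. Most of the rise came from Krt8, with means of 24.1 CPM in control and 52.4 after Hira depletion, and from Krt18, with 13.2 and 32.6. Tfap2c was not called, at 25.5 and 26.7 CPM. Markers of two-cell-like cells summed to 2.99 to 5.74 CPM in control, 15.6 to 22.0 after Hira, 12.2 to 13.0 after Ubn1 and 20.1 to 29.2 after Ubn2 depletion, with 4 of 4, 3 of 4 and 5 of 5 tested called higher. Neural crest markers summed to 26.2 to 35.8 CPM in control and 54.1 to 54.4 after Ubn2 depletion, with 2 of 4 tested called higher, Foxd3 and Tfap2a. Foxd3 gave most of the sum, at a mean of 26.4 CPM in control and 48.7 after Ubn2 depletion. Sox10 and Snai2 were not called, at log2 fold changes of -0.45 and -0.11. Primed epiblast markers summed to 86.7 to 98.5 CPM in control, 88.9 to 104 after Hira, 96.4 to 101 after Ubn1 and 121 to 122 after Ubn2 depletion. Of the 4 tested, 2 were called higher and 1 lower after Hira, 1 higher after Ubn1 and 1 higher after Ubn2 depletion. Primitive streak and mesoderm markers summed to 15.8 to 17.7 CPM in control, 23.0 to 26.2 after Hira and 22.5 to 25.2 after Ubn2 depletion, with 2 called higher and 1 lower in each. Fibroblast markers summed to 20.4 to 20.7 CPM in control, 29.3 to 31.9 after Hira and 23.0 to 26.6 after Ubn2 depletion. After Hira depletion 1 of 2 tested was called higher, and after Ubn2 depletion 2 of 4 were higher and 1, Thy1, lower. Col3a1 had 0 and 0 counts in control and 147 and 81 after Ubn2 depletion. Endoderm markers summed to 14.3 to 16.6 CPM in control and 8.65 to 9.88 after Ubn1 depletion, with 2 of 5 called lower. The shares of all genes called in each comparison are given with the results below. The part of these cell types in those results was not tested.

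In control ESCs most of these genes had few reads. Of the 73, 17 had a mean of at least 1 CPM, here on library sizes scaled by TMM, the trimmed mean of M values, and Lhx8 had no count in any library. All 73 together summed to 89.1 and 91.2 CPM in the control libraries. Six4, a muscle and placode factor, alone gave 22.5 to 34.7% of the sum across the 8 libraries. Per kilobase of exon the highest control levels were those of Nkx6-2 at 3.09 CPM per kb, Six4 at 2.57, Nkx6-3 at 2.49 and Six5 at 1.45 CPM per kb, among the genes named here. Of the 73 genes, 35 had enough reads to be tested in at least 1 comparison and 23 in all 3 depletions. The other 38 had at most 23 counts in any library and a median of 21 counts over all 8.

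**Figure D2:**
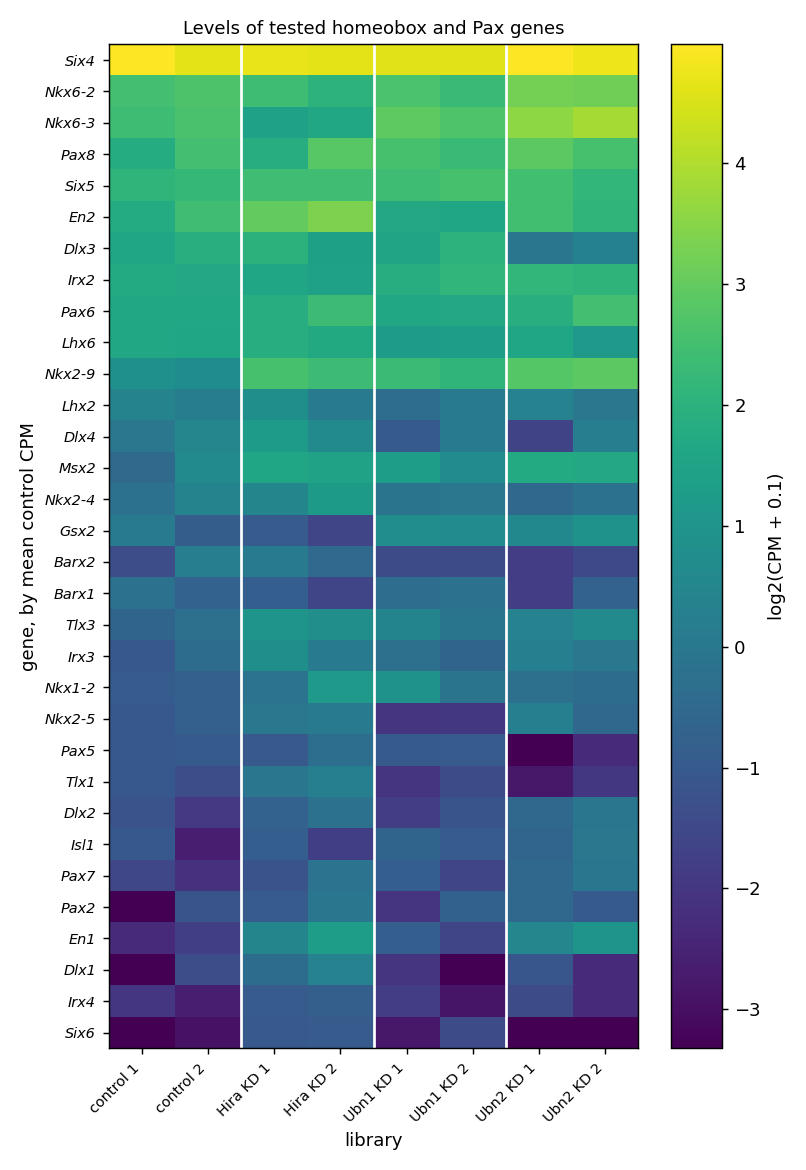
Levels of genes tested in at least 1 comparison, as log2(CPM + 0.1) by colour, with 1 row per gene in order of mean control CPM and 1 column per library. Six4 is the brightest row in all 8 libraries, and the rows of Nkx2-9, En1 and Msx2 are brighter in the Hira and Ubn2 columns than in the control columns.

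The sum over the 73 genes was higher after Hira and Ubn2 depletion. It came to 108 and 110 CPM in the Hira-depleted libraries, 94.3 and 93.4 in the Ubn1-depleted libraries and 118 and 113 in the Ubn2-depleted libraries. Both Hira and both Ubn2 libraries lay above both controls. Without Six4 the sums were 58.2 and 66.3 CPM in control, 82.0 and 85.2 after Hira, 69.7 and 69.2 after Ubn1 and 86.3 and 85.4 after Ubn2 depletion. In bulk RNA, more cells expressing a gene and more RNA per cell cannot be told apart.

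After Hira depletion, 11 of the 33 genes tested were called higher (33.3%) and 2 lower (6.06%), in the quasi-likelihood test of edgeR. A call required a fold change above 1.5 and an adjusted p (Benjamini-Hochberg, over all genes tested) below 0.05. Over all 19035 genes tested, 10.8% were called higher and 5.4% lower. The higher genes were Dlx1, En1, En2, Irx3, Irx4, Msx2, Nkx1-2, Nkx2-9, Six6, Tlx1 and Tlx3, and the lower ones included Nkx6-3. The median log2 fold change was 0.49 over the genes tested and 0.01 over all genes, with 26 values positive and 7 negative. The filter on low counts admits a gene with enough reads in 1 group alone. Among the genes called higher, Dlx1, En1, Irx4, Six6 and Tlx1, with few control counts, were therefore tested through their Hira libraries. Such genes enter only as higher, which can raise the share called higher, the positive values and the median. Dlx2, En1, Isl1 and Pax7, called higher after Ubn2 depletion, entered the Ubn2 comparison in the same way. With a stricter filter the Hira median was 0.29. Both Hira libraries lay above both controls for 20 of the 33 and below both for 6, against 35.1% and 32.1% of all genes. The count of higher genes was 5 without control library 1 and 6 without Hira library 2, and it was 4 with DESeq2 and 7 with a stricter filter on low counts.

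After Ubn1 depletion, 1 of 24 genes tested was called higher (4.17%) and none lower, while 1.53% of all 18373 genes were called higher and 1.56% lower. The gene was Nkx2-9. DESeq2 gave the same counts of called genes. The count of higher genes was 2 without the filter on low counts and 2 without Ubn1 library 2, with Nkx1-2 as the added gene in both. The median log2 fold change was 0.21 against 0 over all genes, with 16 positive and 8 negative. It was 0.05 without control library 1, 0.07 and 0.09 without Ubn1 library 1 and 2, and 0.07 with the stricter filter. Both Ubn1 libraries lay above both controls for 10 of the 24 and below both for 5, against 25.2% and 25.8% of all genes.

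After Ubn2 depletion, 10 of the 28 genes tested were called higher (35.7%) and 1 lower (3.57%), beside 9.59% and 8.75% of all 18219 genes. The higher genes were Dlx2, En1, Gsx2, Isl1, Msx2, Nkx2-9, Nkx6-2, Nkx6-3, Pax6 and Pax7, and the lower one was Dlx3. The median log2 fold change was 0.58 against 0 over all genes, with 19 positive and 9 negative. Both Ubn2 libraries lay above both controls for 16 of the 28 and below both for 6, against 33.2% and 36.7% of all genes. The count of higher genes was 6 without control library 1 or without Ubn2 library 2 and 5 with DESeq2. The count of lower genes was 2 without control library 1 and 3 without Ubn2 library 2 or without the filter on low counts.

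**Figure D3:**
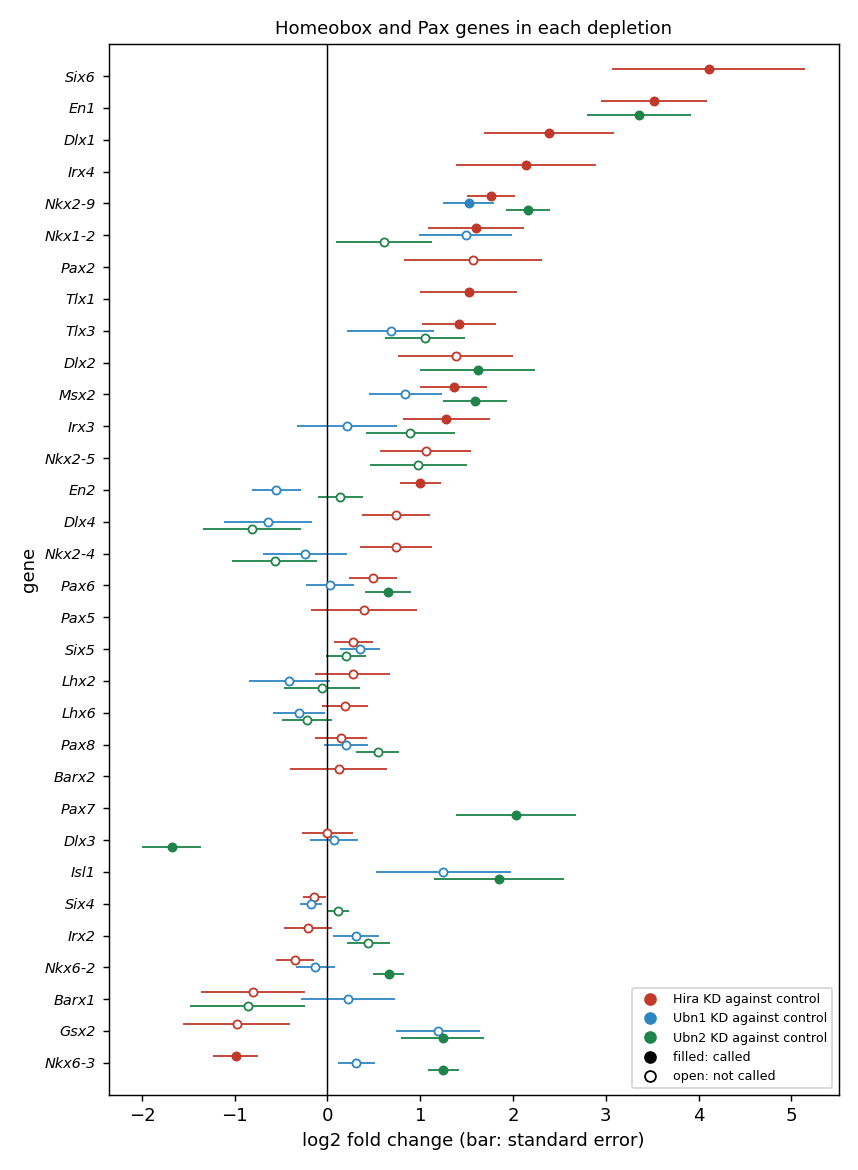
Log2 fold change against control (x axis; bars are standard errors) of genes tested in at least 1 comparison (y axis), after Hira (red), Ubn1 (blue) and Ubn2 (green) depletion. Filled points were called and open points were not; genes are in order of the Hira value, with genes not tested after Hira depletion placed at 0. En1 stands at 3.52 after Hira and 3.36 after Ubn2 depletion, Nkx2-9 is filled in all 3 colours, and the Nkx6-3 points lie on opposite sides of 0.

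Called higher after both Hira and Ubn2 depletion were En1, Msx2 and Nkx2-9, which are 27.3% of the genes called higher after Hira and 30.0% of those called higher after Ubn2 depletion. Both comparisons use the same control libraries, so their values are given side by side without a test of the overlap. Of the 11 genes called higher after Hira depletion, 7 were tested after Ubn2 depletion, and of the 10 called higher after Ubn2 depletion, 8 were tested after Hira depletion.

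Nkx2-9, a gene of the ventral neural tube that is linked to hedgehog signalling, was upregulated in all 3 depletions. It measured 1.70 and 1.53 CPM in the control libraries, 5.81 and 5.11 after Hira, 5.01 and 4.19 after Ubn1 and 6.86 and 7.38 after Ubn2 depletion. Every depleted library was above both controls. Its log2 fold change was 1.76 ± 0.26 (SE) after Hira (adjusted p = 2.45e-05), 1.52 ± 0.28 after Ubn1 (adjusted p = 0.000471) and 2.16 ± 0.24 after Ubn2 depletion (adjusted p = 3.73e-07), by edgeR with n = 2 per group. Hira and Ubn2 depletion differed by -0.38 ± 0.19 in log2 (adjusted p = 0.136). Leaving out any 1 library kept all 3 calls.

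En1, a determinant of the midbrain and hindbrain, had larger changes than Nkx2-9 and Msx2. It measured 0.0974 and 0.191 CPM in control, which are 2 and 6 counts, and 1.28 and 2.41 CPM after Hira, 0.455 and 0.231 after Ubn1 and 1.33 and 1.87 after Ubn2 depletion. All 4 Hira and Ubn2 libraries were above both controls and both Ubn1 libraries. In log2, the fold change was 3.52 ± 0.57 after Hira (adjusted p = 7.13e-05) and 3.36 ± 0.56 after Ubn2 depletion (adjusted p = 6.41e-05), by edgeR. En1 did not pass the filter on low counts in the Ubn1 comparison. Without control library 2 the values were 4.12 and 3.96, and the direct difference between Hira and Ubn2 depletion was 0.17 ± 0.38 (adjusted p = 0.764).

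Msx2, a target of BMP signalling in limb, skull and neural crest, measured 0.633 and 1.43 CPM in control. The levels were 2.92 and 2.65 CPM after Hira, 2.37 and 1.5 after Ubn1 and 3.29 and 3.14 after Ubn2 depletion. Every depleted library was above both controls. The log2 fold change was 1.36 ± 0.36 after Hira (adjusted p = 0.00509) and 1.59 ± 0.34 after Ubn2 depletion (adjusted p = 0.000853), and it was 0.84 ± 0.39 after Ubn1 depletion without passing the threshold (adjusted p = 0.2), by edgeR. The Hira call was lost without control library 1, where the value was 0.96, and the values without control library 2 were 2.11 and 2.34.

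En2, the paralogue of En1 in midbrain and cerebellum, was higher after Hira depletion. It measured 3.36 and 5.35 CPM in control, 7.88 and 10.1 after Hira, 3.10 and 2.92 after Ubn1 and 5.39 and 4.20 after Ubn2 depletion. Both Hira libraries exceeded every other library, and the Ubn2 libraries overlapped the controls. Against control, the log2 fold change was 1.00 ± 0.22 (adjusted p = 0.00122), and En2 was also higher after Hira than after Ubn2 depletion by 0.89 ± 0.21 (adjusted p = 0.00384), by edgeR.

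Nkx6-3, a factor of the hindbrain and stomach, moved in opposite directions. It measured 5.21 and 5.92 CPM in control, 2.62 and 3.07 after Hira, 7.47 and 6.34 after Ubn1 and 11.7 and 14.6 after Ubn2 depletion. The Hira libraries were the lowest and the Ubn2 libraries the highest, with no overlap between these groups and control. As a log2 fold change, the difference was -0.99 ± 0.24 after Hira (adjusted p = 0.00253) and 1.25 ± 0.17 after Ubn2 depletion (adjusted p = 7.63e-06), by edgeR. The direct difference, Hira minus Ubn2, was -2.22 ± 0.20 (adjusted p = 1.96e-06), and all 3 calls held with each library left out.

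Nkx6-2, which acts in ventral neural progenitors and oligodendrocytes, measured 5.5 and 6.27 CPM in control. The levels were 5.20 and 4.02 CPM after Hira, 6.06 and 4.73 after Ubn1 and 9.46 and 8.95 after Ubn2 depletion. Both Ubn2 libraries were above all others. The log2 fold change was 0.66 ± 0.17 after Ubn2 depletion (adjusted p = 0.00496) and -0.99 ± 0.19 for Hira against Ubn2 (adjusted p = 0.0012), by edgeR. The Ubn2 call was lost without control library 1, where the value was 0.58. Nkx6-2 shares 246 exon bases with Inpp5a on the opposite strand, an abundant gene at 23.9 to 32.1 CPM, and the sources used here do not state whether counting used strand.

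**Figure D4:**
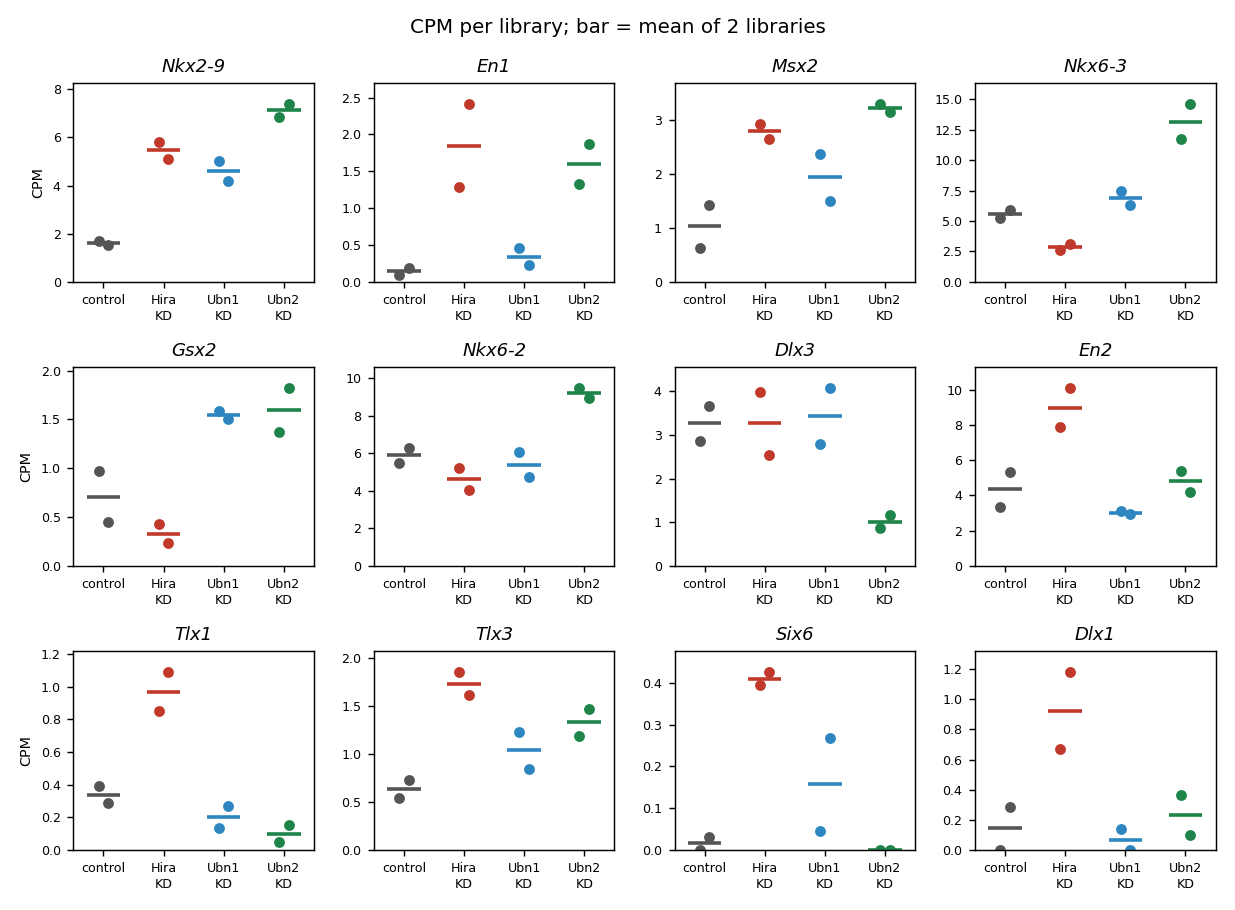
CPM in each library (y axis, from 0; dots) and the mean of the 2 libraries (bars) for 12 genes called in at least 1 comparison, in control, Hira, Ubn1 and Ubn2 depletion (x axis). Both Hira libraries of Tlx1 and En2 lie above all other libraries, both Ubn2 libraries of Dlx3 lie below all others, and Six6 reaches no more than 0.426 CPM in any library.

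Among the forebrain genes, Gsx2, which patterns the ventral telencephalon, was higher after Ubn2 depletion. It measured 0.974 and 0.446 CPM in control, 0.426 and 0.236 after Hira, 1.59 and 1.5 after Ubn1 and 1.37 and 1.82 after Ubn2 depletion. The Ubn1 and Ubn2 libraries were above all control and Hira libraries. Ubn2 depletion changed it by 1.24 ± 0.45 in log2 (adjusted p = 0.0322) and Ubn1 depletion by 1.19 ± 0.45 (adjusted p = 0.1), by edgeR. Hira was below Ubn2 depletion by a log2 difference of -2.19 ± 0.47 (adjusted p = 0.00242), which held with each library left out. The Ubn2 call against control was lost with DESeq2, without control library 2 (0.71) and without Ubn2 library 2 (1.03), and it was 1.85 without control library 1.

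Dlx1 and Dlx2 lie 9.4 kb apart on chromosome 2 and act in forebrain interneurons. Dlx1 had 0 and 9 counts in control, 22 and 25 after Hira, 3 and 0 after Ubn1 and 8 and 2 after Ubn2 depletion. Both Hira libraries were above all others, with a log2 fold change of 2.39 ± 0.70 (adjusted p = 0.0114) and of 1.89 ± 0.63 against Ubn2 depletion (adjusted p = 0.0299), by edgeR. The first call was lost without control library 1 (1.64), without Hira library 2 (1.98) and with DESeq2. It was kept without control library 2, where the remaining control library had 0 counts and the fitted change is therefore not given. The second was lost with DESeq2, in a fit of all 8 libraries, without Hira library 2 (1.47) and without Ubn2 library 2 (1.29), and it was 3.09 without Ubn2 library 1. Dlx1 shares 335 exon bases with its antisense gene Dlx1as, which had 6 to 21 counts per library.

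Dlx2 had 7 and 5 counts in control, 17 and 16 after Hira, 4 and 9 after Ubn1 and 13 and 17 after Ubn2 depletion. For Dlx2 the log2 fold change was 1.62 ± 0.62 after Ubn2 (adjusted p = 0.0436) and 1.38 ± 0.62 after Hira depletion (adjusted p = 0.0901), by edgeR. The Ubn2 call was lost in a fit of all 8 libraries, with DESeq2, without the low-count filter, with a replicate block and without each library in turn, with values of 2.17 and 1.08 without the control libraries and 1.86 and 1.33 without the Ubn2 libraries.

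Dlx3, a gene of placenta, skin and teeth, fell after Ubn2 depletion. It measured 2.87 and 3.66 CPM in control, 3.98 and 2.55 after Hira, 2.78 and 4.07 after Ubn1 and 0.868 and 1.16 after Ubn2 depletion. Both Ubn2 libraries were below all others, which overlapped each other. On the log2 scale the change was -1.68 ± 0.32 (adjusted p = 0.000276), and Hira depletion was higher than Ubn2 depletion by 1.70 ± 0.34 (adjusted p = 0.00146), by edgeR. Dlx4, 15.2 kb away on chromosome 11, measured 0.876 and 1.34 CPM in control, 2.28 and 1.47 after Hira, 0.410 and 0.999 after Ubn1 and 0.229 and 1.06 after Ubn2 depletion. It passed no test against control. Its level after Hira was above that after Ubn2 depletion by 1.58 ± 0.52 in log2 (adjusted p = 0.027, edgeR), a call lost with DESeq2, without Hira library 1 (1.20) and without Ubn2 library 1 (0.83), and 3.03 without Ubn2 library 2. Dlx4 shares 79 exon bases with Dlx4os on the other strand, which had 2 to 43 counts per library.

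Tlx1, needed for the spleen, and Tlx3, a fate gene of sensory and spinal neurons, were both higher after Hira depletion. Tlx1 measured 0.389 and 0.287 CPM in control, 0.851 and 1.09 after Hira, 0.137 and 0.269 after Ubn1 and 0.0457 and 0.152 after Ubn2 depletion. Both Hira libraries were the highest. Its log2 fold change was 1.52 ± 0.52 against control (adjusted p = 0.0278) and 3.24 ± 0.69 against Ubn2 depletion (adjusted p = 0.00211), by edgeR. The first call was lost with DESeq2 and without any 1 library, at 1.72 and 1.27 without the control and 1.70 and 1.33 without the Hira libraries. The second held, at 2.61 without Ubn2 library 1 and 4.25 without Ubn2 library 2.

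Tlx3 measured 0.535 and 0.732 CPM in control, 1.85 and 1.61 after Hira, 1.23 and 0.846 after Ubn1 and 1.19 and 1.47 after Ubn2 depletion. All depleted libraries were above both controls. The log2 fold change was 1.42 ± 0.40 after Hira (adjusted p = 0.00913), 0.68 ± 0.47 after Ubn1 (adjusted p = 0.426) and 1.05 ± 0.43 after Ubn2 depletion (adjusted p = 0.0605), by edgeR. The Hira call was lost with DESeq2, without control library 1 (1.24) and without Hira library 1 (1.31).

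Further genes called higher after Hira depletion had few reads. Six6, an eye and pituitary factor, had 0 and 1 counts in control, 13 and 9 after Hira, 1 and 7 after Ubn1 and 0 and 0 after Ubn2 depletion. The ratio of its rate after Hira depletion to that in control was 23.0, with an exact 95% interval of 3.72 to 949 that covers counting error only. Its adjusted p was 0.00395 by edgeR, and the call was lost without control library 1, and Six6 fell below the filter on low counts without any 1 of the other 3. It shares 192 exon bases with 4930447C04Rik, which measured 12.3 to 21.0 CPM.

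Irx4, a ventricular heart factor, had 3 and 2 counts in control, 14 and 10 after Hira, 4 and 1 after Ubn1 and 6 and 2 after Ubn2 depletion, and changed after Hira depletion by 2.14 ± 0.75 in log2 (adjusted p = 0.032, edgeR). The call was lost without the low-count filter and without any 1 library, at 2.72 and 1.56 without the control and 2.21 and 2.05 without the Hira libraries. Irx3, which patterns the neural tube, measured 0.389 and 0.669 CPM in control and 1.67 and 0.946 after Hira, against 0.729 and 0.538 after Ubn1 and 1.10 and 0.910 after Ubn2 depletion. Both Hira libraries were above both controls. Its log2 fold change was 1.28 ± 0.47 (adjusted p = 0.0387, edgeR), and the call was lost with DESeq2, without control library 1 (0.99) and without Hira library 1 (0.78). Irx3 shares 124 exon bases with Irx3os, which had 4 to 16 counts.

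Nkx1-2, a marker of the caudal epiblast, measured 0.438 and 0.478 CPM in control, 0.791 and 2.13 after Hira, 1.82 and 0.807 after Ubn1 and 0.731 and 0.658 after Ubn2 depletion. All depleted libraries were above both controls. This gave a log2 fold change of 1.60 ± 0.52 after Hira (adjusted p = 0.0209) and 1.49 ± 0.50 after Ubn1 depletion (adjusted p = 0.0615), by edgeR. The Hira call was lost with DESeq2, without control library 2 (1.65) and without Hira library 2 (0.76), and was 2.19 without Hira library 1. Gm16764 on the other strand shares 541 exon bases with it and had 2 to 16 counts.

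Besides these, Isl1, Pax6 and Pax7 were called higher after Ubn2 depletion. Isl1, a factor of motor neurons and of heart progenitors, had 8 and 2 counts in control, 15 and 4 after Hira, 12 and 11 after Ubn1 and 12 and 18 after Ubn2 depletion. Ubn2 depletion changed it by 1.85 ± 0.70 in log2 (adjusted p = 0.041, edgeR), and the call was lost with DESeq2, in a fit of all 8 libraries, without control library 2 (0.89), without Ubn2 library 1 (2.17) and without Ubn2 library 2 (1.43), and was 3.43 without control library 1. The heart and muscle marker sum rose in the same libraries, as given above, and its part was not tested.

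Pax6, a regulator of eye and forebrain, measured 3.02 and 2.99 CPM in control, 3.53 and 5.06 after Hira, 2.96 and 3.15 after Ubn1 and 3.70 and 5.61 after Ubn2 depletion. Both Ubn2 libraries were above both controls. Against control, the log2 fold change was 0.65 ± 0.25 (adjusted p = 0.0438, edgeR), and the call was lost with DESeq2, in a fit of all 8 libraries, without either control library (0.65 and 0.63) and without Ubn2 library 2 (0.32). Pax7, a gene of the dorsal neural tube and of muscle stem cells, had 5 and 4 counts in control, 11 and 17 after Hira, 10 and 6 after Ubn1 and 13 and 17 after Ubn2 depletion. Its log2 fold change was 2.03 ± 0.65 after Ubn2 depletion (adjusted p = 0.0168, edgeR). The call was lost with DESeq2, without either control library (2.48 and 1.56) and without Ubn2 library 2 (1.74).

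In the direct comparison of Hira with Ubn2 depletion, 8 of 32 genes tested were higher after Hira depletion (25%) and 3 lower (9.38%), beside 12.0% and 5.61% of all 18563 genes. The median log2 difference was 0.14 against 0.01 over all genes, with 19 positive and 13 negative. Both Hira libraries lay above both Ubn2 libraries for 12 genes and below both for 8, against 35.8% and 32.8% of all genes. The higher genes included Barx2, Dlx1, Dlx3, Dlx4, En2, Nkx2-4 and Tlx1, and lower were Gsx2, Nkx6-2 and Nkx6-3. The filter on low counts acted here as described above. Barx2, Dlx1 and Tlx1 had few Ubn2 counts and were tested through their Hira libraries, and Gsx2 was tested through its Ubn2 libraries. Such genes enter only in favour of the group with reads, which can raise the shares called. The count of higher genes was 3 with DESeq2 and 5 with the stricter filter.

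Of those named, Barx2, Dlx4 and Nkx2-4 were not called against control in any depletion. Barx2, expressed in epithelia and muscle, measured 0.292 and 1.08 CPM in control, 0.943 and 0.615 after Hira, 0.273 and 0.269 after Ubn1 and 0.183 and 0.253 after Ubn2 depletion. Hira was above Ubn2 depletion by 1.85 ± 0.59 in log2 (adjusted p = 0.0246, edgeR), a call lost with DESeq2, without Hira library 1 (1.48) and without either Ubn2 library (1.62 and 2.08). Nkx2-4, a relative of Nkx2-1 in the hypothalamus, measured 0.779 and 1.21 CPM in control, 1.31 and 2.18 after Hira, 0.820 and 0.884 after Ubn1 and 0.594 and 0.759 after Ubn2 depletion. The Hira libraries were the highest, with a difference of 1.33 ± 0.43 from Ubn2 depletion (adjusted p = 0.0261, edgeR), lost with DESeq2, without Hira library 2 (0.94) and without Ubn2 library 1 (1.15).

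Among the genes with high control levels, Six4 and Six5 were not called in any comparison. Six4 measured 30.9 and 24.9 CPM in control, 26.1 and 24.7 after Hira, 24.5 and 24.3 after Ubn1 and 31.5 and 27.5 after Ubn2 depletion. Its log2 fold change was -0.14 ± 0.12 after Hira, -0.18 ± 0.12 after Ubn1 and 0.11 ± 0.12 after Ubn2 depletion, with adjusted p of 0.411, 0.422 and 0.5 by edgeR. Six5, a gene beside the myotonic dystrophy locus, lay between 4.24 and 5.80 CPM across the 8 libraries. The largest change without a call was that of Pax2, a kidney and midbrain factor, which had 0 and 11 counts in control and 14 and 18 after Hira depletion, with a log2 fold change of 1.57 ± 0.74 (adjusted p = 0.108, edgeR). It was called with the replicate number as a block (1.91) and without control library 2, where the remaining control had 0 counts, and its value was 0.81 without control library 1 and 1.06 without Hira library 2.

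Some genes close to a called gene had few or no reads. Nkx2-9 lies 74.5 kb from Nkx2-1, a lung and thyroid gene, and 78.5 kb from Pax9, a tooth and palate gene, on chromosome 12. Nkx2-1 had at most 2 counts and Pax9 at most 4 in any library, beside 35 to 191 for Nkx2-9. Nkx2-2, a ventral neural tube gene 92.1 kb from Nkx2-4 on chromosome 2, had 12 counts in Ubn1 library 2, 9 in Ubn2 library 1 and 3 or fewer in the others. Six6 lies 154.7 kb from Six4 on chromosome 12.

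The 38 genes tested in none summed to 3.31 and 3.85 CPM in control, 6.11 and 4.87 after Hira, 3.10 and 4.61 after Ubn1 and 4.62 and 3.59 after Ubn2 depletion. The Hira libraries were the highest, and the Ubn1 and Ubn2 libraries overlapped the controls. Counting genes by mean CPM without any filter, 53 of the 73 were higher and 18 lower after Hira depletion, with 2 equal. After Ubn1 depletion 42 were higher and 25 lower, and after Ubn2 depletion 42 were higher and 27 lower. The same count was not made over all genes, so these counts have no baseline. For genes with few reads the direction can rest on single counts.

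Other genes of the same pathways were examined as lists of homeobox genes outside these families, cofactors and patterning signals. Over all genes tested, as above, 10.8% were called higher and 5.4% lower after Hira, 1.53% and 1.56% after Ubn1, and 9.59% and 8.75% after Ubn2 depletion. Of the 64 other homeobox genes, 6 of 38 tested were higher and 1 lower after Hira, 2 of 29 higher after Ubn1, and 9 of 30 higher and 5 lower after Ubn2 depletion. Their median log2 fold changes were 0.36, 0.14 and 0.41, beside 0.01, 0 and 0 over all genes. Otx2, a head organizer factor, rose in all 3 with log2 fold changes of 0.67 ± 0.11, 0.73 ± 0.12 and 0.97 ± 0.11. Evx1, a primitive streak and interneuron gene, rose by 3.11 ± 0.59 after Hira and 3.13 ± 0.61 after Ubn2 depletion, and Cdx1, a posterior patterning gene, fell by 1.40 on the log2 scale after Ubn2 depletion. Cdx2, which marks trophectoderm and posterior tissue, rose by 2.82 ± 0.69 after Hira depletion, from 0 and 7 counts in control to 37 and 16. Evx1 had 2 and 5 counts in control, so the changes of Evx1 and Cdx2 rest on few control reads.

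Among 34 cofactors, 7 of 31 tested were higher and 2 lower after Hira, 1 of 30 higher after Ubn1, and 6 of 29 higher and 1 lower after Ubn2 depletion, with medians of 0.19, 0.04 and 0.14. Meis2, a homeodomain partner of Hox and Pbx proteins, measured 2.82 and 2.48 CPM in control, 1.89 and 1.89 after Hira, 6.88 and 6.26 after Ubn1 and 14.8 and 12.3 after Ubn2 depletion. Its log2 fold change was 1.32 ± 0.23 after Ubn1 and 2.38 ± 0.19 after Ubn2 depletion, and it was -0.49 ± 0.29 after Hira depletion without a call (adjusted p = 0.21, edgeR). Sobp, a cofactor of homeodomain factors, rose by 2.45 ± 0.35 after Hira and by 1.43 ± 0.42 after Ubn2 depletion.

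Among 37 patterning signals and readouts, 8 of 29 tested were higher and 2 lower after Hira, none of 25 higher and 1 lower after Ubn1, and 2 of 23 higher and 5 lower after Ubn2 depletion, with medians of 0.31, 0.09 and -0.01. Hhip, a hedgehog inhibitor and target, rose by 2.14 ± 0.31 after Hira and 1.88 ± 0.32 after Ubn2 depletion. After Hira and Ubn2 depletion the growth factor gene Fgf15 fell by 1.29 and 2.38 in log2, and Stra8, a target of retinoic acid, fell by 0.84 and 1.90. Wnt5a rose by 2.02 ± 0.37 after Hira depletion, and Dll1, a Notch ligand, fell by 1.15 and 1.04 after Ubn1 and Ubn2 depletion.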

How the data were processed

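RNA-seq was measured in 8 libraries, 2 per group, grouped by the labels. The authors deposited raw counts per gene, made with Trim Galore, STAR and featureCounts on GRCm38 per the labels; versions, strand setting and treatment of multiply mapping reads are not given in the sources used here. The control counts were identical in the 3 tables (0 differing values) and entered the fits once.

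The 3 depletions were each set against control, and the Hira against the Ubn2 libraries, in edgeR 4.0.16 (R 4.3.3, limma 3.58.1) with TMM factors, filterByExpr, quasi-likelihood tests and Benjamini-Hochberg adjustment over all genes tested. Calls needed an adjusted p below 0.05 and more than a 1.5-fold change. Standard errors are the log2 change over the root of the quasi-F statistic. CPM use TMM-scaled library sizes. In a test on simulated data, edgeR recovered 98.0% of 200 genes altered by 1.5 in log2 for the Hira comparison. It recovered 97.5% for the Ubn1 and 95.5% for the Ubn2 comparison, with 5, 11 and 4 false calls over the 3. DESeq2 recovered 83.5%, 88.5% and 87.0%, with 2, 0 and 0 false calls. The altered genes were drawn from those with a mean of at least 20 counts. The simulated spread between replicates was the same for every gene and was not taken from these data. Recovery and false calls for genes with fewer reads or a larger spread were therefore not tested.

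The genes and lists were chosen with earlier results of these data known. Named genes are the called ones, the 5 with the highest control CPM per kb, the largest changes without a call and genes within 200 kb of these; each list's genes are among those with its smallest adjusted p. Positions come from GENCODE M21 and promoters from RefSeq. Alternatives were DESeq2 1.42.0, its size factors, no filter, a stricter filter, a joint fit of the 8 libraries, a replicate block and leaving out each library. Intervals cover counting error only. Python 3.11.15, pandas 2.3.3, numpy 2.4.6, scipy 1.17.1 and matplotlib 3.10.9 were used. Protein sequences were not used here. Some genes of these families are not reported here by name and stay in the counts.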

Additional observations from a re-analysis of the deposited data

Results flagged for a closer look

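For 10 genes, listed next, the effects of Hira and Ubn2 depletion differed from each other in the direct comparison of the 2 depletions. Higher after Hira than after Ubn2 depletion, as log2 differences, were Tlx1 at 3.24, Dlx1 at 1.89, Barx2 at 1.85, Dlx3 at 1.70, Dlx4 at 1.58, Nkx2-4 at 1.33 and En2 at 0.89. Lower were Nkx6-3 at -2.22, Gsx2 at -2.19 and Nkx6-2 at -0.99. Each passed the threshold of the edgeR test of the difference itself, and the calls of Barx2, Dlx1, Dlx4 and Nkx2-4 were lost with DESeq2 and without some single libraries. With 2 libraries per group, outlying single libraries were not tested.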

How the results depend on the processing

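DESeq2's size factors in edgeR kept all 36 calls, a replicate block kept 35, no low-count filter 34, a fit of all 8 libraries 30, a filter at a mean of 20 counts 25, and DESeq2 18, with 2 given no adjusted p. Of the 36, 16 held in every alternative that tested the gene. With DESeq2, 4 genes were called higher and 1 lower after Hira (median log2 fold change 0.67), 5 higher after Ubn2 (median 0.29) and 3 higher for Hira against Ubn2 (median 0.36). Without the low-count filter, the medians were 0.67 after Hira, 0.28 after Ubn2 and 0.34 for Hira against Ubn2, with 2 genes higher after Ubn1 and 3 lower after Ubn2. With the stricter filter, 7 genes were higher after Hira and 5 for Hira against Ubn2, with medians of 0.29 after Hira, 0.07 after Ubn1 and 0.17 after Ubn2. In a fit of all 8 libraries the Hira median was 0.72. The cause was not tested, except that the stricter filter tested fewer genes and kept every call of a gene it tested.

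Leaving out 1 library at a time gave 5 to 9 genes higher and 1 to 2 lower after Hira (median 0.56 to 0.84), 1 to 2 higher after Ubn1 (median 0.05 to 0.26), 6 to 8 higher and 1 to 3 lower after Ubn2 (median 0.39 to 0.65), and 6 to 7 higher and 3 to 4 lower for Hira against Ubn2 (median 0.20 to 0.40). A lone remaining library was assumed to vary like the other group.

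The labels number the libraries but do not say that a number marks a shared culture or day. Same-numbered libraries deviated with a correlation of 0.1 between control and Hira, 0.05 between control and Ubn1, -0.044 between control and Ubn2 and -0.097 between Hira and Ubn2, over 18418 genes. With the replicate block, 12 genes were higher and 2 lower after Hira, 1 higher after Ubn1, 9 higher and 1 lower after Ubn2, and 8 higher and 3 lower for Hira against Ubn2, with medians of 0.49, 0.22, 0.59 and 0.14.

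Some values of genes not called in a comparison changed direction. Dlx3 after Hira depletion was -0.02 with DESeq2, -0.00 with its size factors, -0.01 without the filter and -0.02 with the replicate block. With 1 library left out, the Hira values ranged from -0.37 to 0.26 for Dlx3, -0.45 to 1.41 for Barx2 and -0.30 to 0.03 for Six4. The Ubn1 values ranged from -0.24 to 0.30 for Dlx3, -0.33 to 0.04 for Nkx6-2, -0.48 to 0.12 for Nkx2-4, -0.07 to 0.68 for Irx3 and -0.01 to 0.07 for Pax6. The Ubn2 values ranged from -0.13 to 0.52 for En2 and -0.06 to 0.27 for Six4. For Hira against Ubn2 they ranged from -0.32 to 0.60 for En1, -1.11 to 0.15 for Pax7, -0.09 to 0.72 for Irx3, -0.49 to 0.07 for Dlx2, -0.41 to 0.19 for Pax6, -0.03 to 0.25 for Six5 and -0.24 to 0.76 for Pax2. Of 781 single-gene values under alternatives, 680 kept direction and side of the threshold.

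Depth limits the genes with few reads: 38 of the 73 did not pass the filter in any comparison, and a level under 3 counts was not distinguishable from 0.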

Other observations

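Some genes on the opposite strand share exon bases with a homeobox or Pax gene. In all, 19 of the 73 genes share exon bases with an opposite-strand gene and 32 overlap another gene in the tables. Six3os1, which overlaps the eye and forebrain gene Six3 over 106 exon bases, had 0 and 1 counts in control, 18 and 9 after Hira, 4 and 4 after Ubn1 and 4 and 8 after Ubn2 depletion. Both Hira libraries were above all others, and Six3os1 was called higher after Hira depletion (adjusted p = 0.0018, edgeR). It was chosen after its values were seen. Gm47071, which shares 165 exon bases with the hindlimb gene Pitx1, measured 22.6 to 38.1 CPM across libraries, while Pitx1 had at most 12 counts in any library.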
